A study of Mus musculus with 30 samples.

Results

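Irf4 knockout (KO) and control dendritic cells were compared after 24 h of lipopolysaccharide (LPS), the bacterial cell wall component that TLR4 senses. The comparison took, by the array titles, the 5 KO and the 5 control arrays at 24 h, which are 10 of the 30 arrays of the series. All came from bone marrow-derived dendritic cells of C57BL/6 mice, grown in culture and selected with magnetic beads for CD11c after the stimulation. KO cells came from CD11c-Cre IRF-4 flox/flox mice and control cells from CD11c-Cre mice, so both groups carried the Cre transgene and only KO cells carried the loxP-flanked Irf4 alleles. Cre stood under the CD11c promoter, so Irf4 is deleted only once a cell has expressed CD11c. The other 20 arrays were 5 KO and 5 control samples each that were unstimulated or had 6 h of LPS. The labels call the samples of a group biological replicates but do not say whether each is a mouse or a culture, so the p-values cover only the spread among the samples at hand, which may be technical.

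IRF4 belongs to the interferon regulatory factors and binds DNA weakly alone and more tightly with an ETS factor such as PU.1, at composite ETS-IRF elements, or with BATF and JUN, at composite AP-1-IRF elements. In dendritic cells it is known for its part in the development of one conventional subset, in presentation on MHC class II and in migration to lymph nodes. Toll-like receptor signals raise its own transcription, and IRF4 protein can bind the adaptor MyD88 and limit signalling through IRF5.

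Each array carried the sample in Cy5 and a pooled mouse reference RNA in Cy3. A level below is a log2 ratio of sample over reference, a difference is the KO mean minus the control mean on that scale with its standard error, and calls rest on an adjusted p below 0.05 (limma, Benjamini-Hochberg over 11250 genes). Between 44.8% and 55.5% of probes were well above background on the 10 arrays, whose median Cy5 intensity was 112 to 140. A difference rests in part on background signal where a gene was above it on only some arrays of a group, and their number is given for named genes with 3 or fewer such arrays. Since these are bulk samples, fewer cells of a type and less RNA per cell cannot be told apart.

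Control replicate 2 did not resemble the other controls. It lay nearest an unstimulated control array (Pearson's r = 0.91 over all genes). Its slope on the KO response to LPS, taken over 728 genes with a called change of 2-fold or more, was 0.137, against 0.635 to 0.785 for the other 4 controls. Results are therefore given with and without it. The array was also the only one at 24 h on the slide scanned last, the later slide below. That slide carried control replicate 3 of the 6 h time too, and its part in the difference was not tested. The remaining arrays fell into 2 sets in both genotypes. KO replicates 1 to 3 correlated at 0.989 or above and replicates 4 and 5 at 0.985, but at 0.863 to 0.899 between these sets, and controls 1 and 3 (0.991) and 4 and 5 (0.986) split in the same way (0.852 to 0.917). KO replicates 4 and 5 were closer to controls 4 and 5 (0.921 to 0.944) than to their own group's replicates 1 to 3. No slide carried KO and control samples of the 24 h time together, so slide and genotype cannot be told apart there. KO replicates 1 to 4 shared a slide, and KO replicate 4 nevertheless lay nearest KO replicate 5, which was on another.

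**Figure D1:**
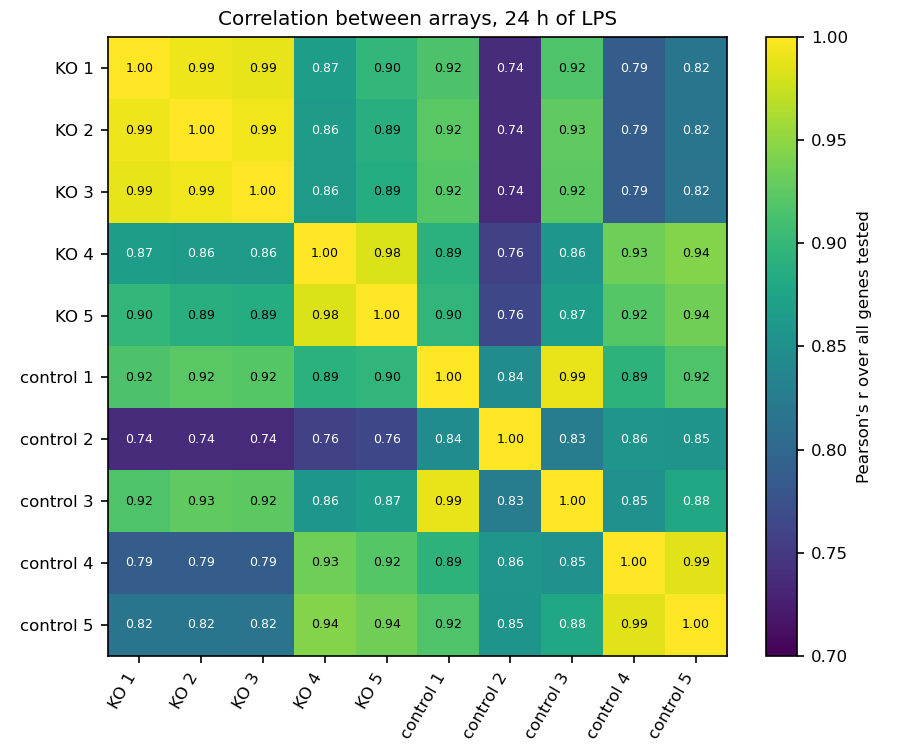
Pearson's r over all tested genes between the 10 arrays at 24 h of LPS, KO arrays before control arrays on both axes. Replicates 1 to 3 and 4 to 5 form separate blocks in both genotypes, and control replicate 2 has r of 0.735 to 0.765 with KO arrays and 0.827 to 0.857 with the other controls.

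Irf4 itself was lower in KO cells. Its level was -0.47, -0.06, -0.38, 0.62 and 0.14 on KO arrays 1 to 5, against 1.99, 2.68, 2.23, 1.86 and 1.95 on control arrays 1 to 5. The highest KO value was below the lowest control value, and an exact permutation test (two-sided) gave p = 0.00794, which no split of 5 against 5 can undercut. The difference was -2.17 ± 0.27, or 4.5-fold lower (adjusted p = 2.69e-06), and -2.04 ± 0.28 without control replicate 2 (adjusted p = 1.65e-05). The gene stayed well above background on every KO array. One probe measured it, and the sources used here do not place that probe relative to the deleted sequence.

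Of the 11250 genes tested 1736 were called (15.4%), 786 higher (6.99%) and 950 lower in KO cells (8.44%), and 573 differed at least 2-fold. The KO and control groups did not overlap for 1374 genes (12.2%), and 1114 of these were called in the same direction. Without control replicate 2 there were 1322 calls (11.8%), 576 higher (5.12%) and 746 lower (6.63%). A further array left out of that fit took the count to 871 (KO replicate 1) or 875 (control replicate 5). Both fits called 1229 genes, in the same direction. Each of these 1229 also differed in the called direction within replicates 1 to 3 (control replicate 2 left out) and within replicates 4 and 5, and so did 1723 of the 1736 (99.3%), beside 7768 of all genes (69%); the same arrays made the calls. With slide as a fixed block, a fit in which the 24 h difference rests on KO replicate 5 alone through a chain of slides, 431 of the 1736 turned in direction and the cause was not tested.

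The gene with the largest rise was Ch25h, the enzyme that hydroxylates cholesterol to an oxysterol with antiviral and immune-regulating activity. Its level was 7.71, 7.77, 7.67, 6.67 and 6.63 on KO arrays and 4.07, 1.80, 4.02, 2.80 and 2.61 on control arrays. Every KO array was far above every control, of which replicate 2 was the lowest, and the difference was 4.23 ± 0.48, 18.7-fold (adjusted p = 8.42e-07), and 3.91 ± 0.48 without control replicate 2. Clec1b, a receptor for podoplanin, had 4.16, 4.19, 3.79, 5.12 and 5.31 on KO arrays, against 1.28, 1.09, 1.14, 1.44 and 1.88 on control arrays. Here KO replicates 4 and 5 were the highest of all, and the difference was 3.15 ± 0.29 (8.87-fold, adjusted p = 5.99e-08).

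Slc1a2, a glutamate transporter, reached 4.58, 4.79, 4.76, 3.24 and 2.88 in KO cells and 1.71, 0.77, 1.72, 1.15 and 0.75 in control cells. It was well above background on all 5 KO arrays and on 4 control arrays, and rose by 2.83 ± 0.31 (7.13-fold, adjusted p = 6.62e-07). Spp1, which encodes the secreted phosphoprotein osteopontin, had 0.88, -0.77, -0.61, -1.34 and -0.03 on KO arrays, against -2.68, -4.17, -2.84, -3.53 and -2.80 on control arrays. The groups were separate for this gene too (2.83 ± 0.55, adjusted p = 0.000661). Phgdh, which opens the pathway of serine synthesis, stood at -0.10, -0.06, -0.24, -1.37 and -1.24 in KO cells and at -2.97, -3.18, -2.93, -3.39 and -3.61 in control cells. Its control arrays varied little, replicate 2 included, and it was 6.12-fold higher in KO cells (2.61 ± 0.28, adjusted p = 4.52e-07).

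The other 7 of the 12 largest rises were Ms4a7, a membrane protein of macrophages (2.87 ± 0.38), Cox6a2, an isoform of a cytochrome oxidase subunit (2.86 ± 0.61), Cyb5r1 (2.73 ± 0.31), the carbonic anhydrase Car6 (2.69 ± 0.46), the forkhead factor Foxf2 (2.69 ± 0.39), the secreted glycoprotein Fstl1 (2.66 ± 0.48) and Ms4a8a. The last was well above background on 5 KO arrays and on 2 control arrays, so its difference of 2.57 ± 0.63 is taken mostly against background signal. By the rule for naming, each was called with and without control replicate 2 and its groups were separate. Cox6a2, Car6, Fstl1 and Ms4a8a turned negative with slide as a fixed block.

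**Figure D2:**
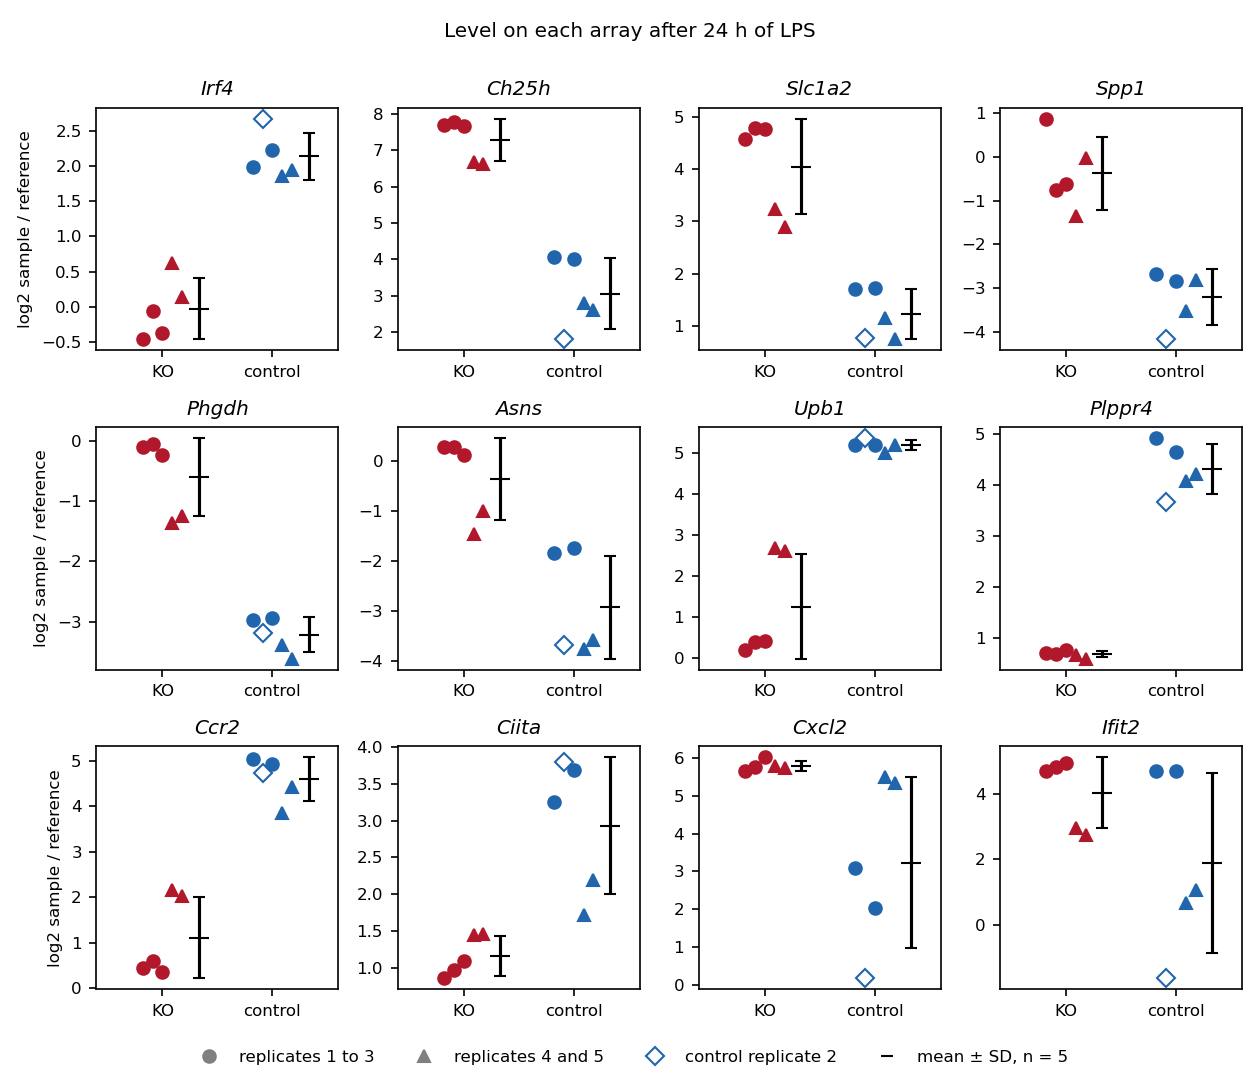
Levels (log2 sample over reference) of 12 genes on each array after 24 h of LPS, KO left of control, with symbols for the replicate sets and for control replicate 2 and bars for mean ± SD (n = 5). Irf4, Upb1, Plppr4, Ccr2 and Ciita are lower and Ch25h, Slc1a2, Spp1, Phgdh and Asns higher on every KO array than on any control array, whereas for Ifit2 the groups overlap.

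Upb1, which completes the breakdown of pyrimidines, fell the most. Its level was 0.20, 0.39, 0.41, 2.69 and 2.62 on KO arrays, against 5.21, 5.37, 5.21, 5.01 and 5.20 on control arrays. KO replicates 4 and 5 were intermediate, while the 5 controls lay close together, and the difference was -3.94 ± 0.50 (15.3-fold lower, adjusted p = 4.2e-06). Plppr4, a membrane protein related to lipid phosphatases, had 0.70, 0.69, 0.76, 0.65 and 0.58 in KO cells and 4.93, 3.67, 4.66, 4.09 and 4.22 in control cells. In this case the replicate sets did not differ among KO arrays (-3.64 ± 0.40, 12.4-fold lower, adjusted p = 6.62e-07).

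Ccr2, the chemokine receptor that brings monocytes and their progeny into tissue, had 0.44, 0.59, 0.34, 2.15 and 2.01 on KO arrays and 5.03, 4.74, 4.94, 3.85 and 4.43 on control arrays. Ccr2 was lower in KO cells (adjusted p = 4.42e-05). Only KO replicates 4 and 5 were well above background, so the fitted difference of -3.49 ± 0.53 is in part against background signal, and within replicates 4 and 5, where both groups were measured, it was -2.06. Lmo1, a LIM-only transcriptional cofactor, varied little within either group, with 1.10, 1.05, 0.86, 0.72 and 1.13 in KO cells, against 3.42, 3.58, 3.27, 3.51 and 3.40 in control cells (-2.46 ± 0.16, adjusted p = 4.78e-11). Others among the 12 were the calprotectin subunit S100a9 (-3.43 ± 0.73), Septin4 (-3.41 ± 0.43), the surface protein Plet1 (-3.16 ± 0.58), Strip2 (-2.72 ± 0.42), the sialic acid-binding lectin Siglecf (-2.61 ± 0.40), the sulfotransferase Chst7 (-2.53 ± 0.23) and the GTPase Gimap1 (-2.35 ± 0.43). Of these Plet1 and Siglecf turned positive with slide as a fixed block.

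The counts of list members below stand beside 6.99% of all genes higher and 8.44% lower with all arrays, and 5.12% and 6.63% without control replicate 2. Of 41 measured IRF, AP-1 and ETS family genes, the factors that IRF4 works with, 5 were called, all lower in KO cells, beside 15.4% of all genes called and 8.44% lower. The fit without control replicate 2 called 3, all lower, which is near the 6.63% of all genes. The list's median difference was 0.02 beside -0.01 over all genes. The ETS-type repressor Etv3 had 1.14, 1.14, 1.14, 1.09 and 0.90 on KO arrays, against 2.80, 2.88, 3.05, 2.02 and 1.97 on control arrays (-1.46 ± 0.30, adjusted p = 0.00138). Irf5, which drives inflammatory cytokine genes, stood at 2.89, 3.03, 3.19, 2.84 and 2.56 in KO cells, against 3.91, 4.11, 3.90, 3.81 and 3.95 in control cells (-1.03 ± 0.24, adjusted p = 0.00303). For both genes the groups were separate, as they were for Etv6 (-0.95 ± 0.20). The NF-kB subunit Relb was lower by 0.94 ± 0.29 (adjusted p = 0.0274), a call that ended without control replicate 2 (-0.75, adjusted p = 0.106) and without KO replicate 4 or 5 (up to 0.0673). Irf8 (-0.41) and Batf3 (-0.73), which specify the other conventional subset, and Spi1, which encodes PU.1 (-0.06), were not called. Batf3 passed the threshold once replicate number was blocked (adjusted p = 0.00901) or the 2 replicate sets had a term of their own (0.00508).

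MHC class II presentation had 5 members lower and 2 higher of 20, with a median difference of -0.28 (-0.31 without control replicate 2, where 4 were lower and 1 higher). The median was -0.49 within replicates 1 to 3 (control replicate 2 left out), with 5 of 20 differences positive. Within replicates 4 and 5 it was 0.05, with 11 positive. Ciita, the transactivator of the class II genes, had 0.86, 0.96, 1.09, 1.44 and 1.45 in KO cells, against 3.25, 3.80, 3.69, 1.71 and 2.19 in control cells. All KO arrays were below the controls, but controls 4 and 5 were much lower than the rest, and the difference of -1.77 ± 0.33 (adjusted p = 0.000468) was -2.50 within replicates 1 to 3 and -0.51 within 4 and 5. The invariant chain Cd74 fell to 2.31, 2.54, 2.51, 1.98 and 1.75 on KO arrays, against 3.74, 4.13, 3.83, 2.61 and 2.81 on control arrays (-1.21 ± 0.35, adjusted p = 0.0194). It was not called without control replicate 2 (-1.03 ± 0.37, adjusted p = 0.069).

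The peptide-exchange chain H2-DMa (-0.56 ± 0.18, adjusted p = 0.0388) lost its call without control replicate 2 (adjusted p = 0.0965) or any of 6 other arrays (up to 0.116), and its difference was 0 within replicates 4 and 5. Nfya, a subunit of the factor that binds class II promoters (-0.38 ± 0.11), was not called without KO replicate 1 (adjusted p = 0.0572). The class II chains H2-Aa (-0.63), H2-Eb1 (-0.56) and H2-Ab1 (0.07) were not called. The 2 members higher were the protease Ctsl, which processes the invariant chain in thymic epithelium (2.18 ± 0.60, negative with the slide block), and the ubiquitin ligase Marchf1, which removes class II from the surface (0.98 ± 0.33, adjusted p = 0.132 without control replicate 2 and up to 0.0793 without any 1 KO replicate). In MHC class I presentation 2 were higher and 1 lower of 21. Rab27a, a GTPase of phagosomes, was lower (-1.18 ± 0.25, well above background on 3 KO arrays and 5 control arrays), and the 2 higher, Psmb10 and Erap1, were not called without control replicate 2 (adjusted p = 0.148 and 0.0619) or any of 5 other single arrays (up to 0.137 and 0.145 without KO replicate 3).

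Costimulatory and coinhibitory molecules had 6 of 21 called, all lower, beside 8.44% of all genes, with a median of -0.37, and 5 lower without control replicate 2, beside 6.63%. Nectin2, an adhesion molecule and ligand of inhibitory receptors, had 0.12, 0.07, -0.04, 0.05 and 0.13 on KO arrays and 0.95, 1.43, 0.85, 0.62 and 0.84 on control arrays (-0.87 ± 0.21, adjusted p = 0.00536). Pdcd1lg2, which encodes the PD-1 ligand PD-L2, was lower by 0.87 ± 0.26 (adjusted p = 0.0217), but its difference turned to 0.09 with Agilent's processed ratios and to 0.45 with slide as a fixed block. The OX40 ligand Tnfsf4 (-1.34 ± 0.42) and the TNF family cytokine Tnfsf15 (-1.44 ± 0.44) were lower too. Without single arrays these 3 lost their calls (adjusted p up to 0.0805 for Pdcd1lg2 without KO replicate 3, 0.108 for Tnfsf4 without KO replicate 1 and 0.0787 for Tnfsf15 without control replicate 5). Cd80 (-0.91), Cd86 (-0.53) and Cd83 (-0.37) were not called, although Cd80 was with the replicate block (adjusted p = 0.00514) and the set term (0.00565).

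Migration genes of mature dendritic cells had 7 lower and 1 higher of 32, beside 8.44% and 6.99% of all genes. Without control replicate 2 they had 6 lower and 0 higher, beside 6.63% and 5.12%. Beside Ccr2, the sphingosine receptor S1pr3 fell to -0.54, -0.62, -0.52, 0.28 and 0.23 in KO cells, against 0.74, 1.80, 0.63, 1.31 and 1.24 in control cells (-1.38 ± 0.20, adjusted p = 3.14e-05). The sheddase Adam8 was lower by 1.49 ± 0.40 (adjusted p = 0.0113). Fscn1, the actin bundler of mature dendritic cell processes, had all KO arrays between -0.97 and -0.65 and all control arrays between 0.30 and 1.47 (-1.50 ± 0.45, adjusted p = 0.0214). Its call ended without control replicate 2 (adjusted p = 0.0704) or KO replicate 1 (0.051). The decoy chemerin receptor Ccrl2 was higher (2.14 ± 0.65), but not without control replicate 2 (1.48, adjusted p = 0.113) or KO replicate 1, 2 or 3 (up to 0.0643). Ccr7, the receptor that leads dendritic cells to lymph nodes, differed by -0.16 and was not called.

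Of the dendritic cell lineage genes 5 were lower and 2 higher of 27, and 4 and 2 without control replicate 2. The corepressor Cbfa2t3, which acts in dendritic cell development, had 0.69, 1.02, 1.10, 1.00 and 0.72 on KO arrays, against 3.11, 4.06, 3.20, 3.46 and 2.15 on control arrays (-2.29 ± 0.39, adjusted p = 0.000152). The peptidase Dpp4 (-1.86 ± 0.41) and the MYC family factor Mycl (-0.99 ± 0.28) were lower as well. Clec9a, a receptor for dead cells on the other conventional subset, was well above background on 4 KO arrays and on 0 control arrays, and was at least 1.28-fold higher in KO cells (adjusted p = 0.000961). Flt1 was higher (1.37 ± 0.46), a call that any of 7 single arrays could end (adjusted p up to 0.131 without KO replicate 1). The defining genes Itgax, which encodes CD11c (0.22), and Zbtb46 (-0.40) were well above background on every array of both groups and were not called. The progenitor receptor Flt3 was above background on 3 KO arrays and 2 control arrays, and Cd209a on 0 KO arrays and 1 control array.

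Proinflammatory cytokines had 4 members higher and 1 lower of 25, with a median of 0.35. Without control replicate 2 the balance turned, with 2 higher and 3 lower and a median of 0.13. Il12a, a subunit of interleukin 12, had 3.47, 3.45, 3.75, 3.29 and 3.11 on KO arrays, against 2.01, -0.30, 1.93, 1.82 and 1.82 on control arrays. The groups were separate with and without control replicate 2, the lowest value, and the difference was 1.96 ± 0.35 (adjusted p = 0.0003), or 1.52 ± 0.28 without it. Its partner in another dimer, Ebi3, was lower (-0.91 ± 0.25, adjusted p = 0.011). The growth factor Csf1 (1.22 ± 0.37) was higher but not called without any of 5 single arrays (adjusted p up to 0.0749 without KO replicate 3). Inhba (2.03 ± 0.63) and the pentraxin Ptx3 (2.12 ± 0.72) were not called without control replicate 2 (adjusted p = 0.123 and 0.188) or single others, KO replicates 1 to 3 among them (up to 0.0755 and 0.134). Il6 (1.29), Tnf (1.34), Il1a (1.40) and Il1b (1.50) were not called.

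Among chemokines 5 of 22 were higher and 1 lower, and 2 and 1 without control replicate 2. Pf4 rose to -0.07, 0.01, 0.02, 1.14 and 0.99 in KO cells, against -1.42, -1.54, -1.60, -0.59 and -0.71 in control cells (1.59 ± 0.29, adjusted p = 0.000305). Ccl24, which attracts eosinophils, was lower (-1.80 ± 0.46, adjusted p = 0.00753). The neutrophil attractants Cxcl1 and Cxcl2 depended on the arrays taken. Cxcl2 had 5.66, 5.76, 6.01, 5.77 and 5.73 on KO arrays, against 3.09, 0.18, 2.04, 5.51 and 5.33 on control arrays. Controls 4 and 5 were close to the KO level, and the difference of 2.56 ± 0.81 (adjusted p = 0.0303) was 3.24 within replicates 1 to 3 and 0.34 within 4 and 5. Cxcl1 (2.80 ± 0.88, adjusted p = 0.0291) gave 3.83 and -0.17 within those sets. Without control replicate 2 Cxcl1 (adjusted p = 0.128), Cxcl2 (0.132) and Ccl3 (2.04 ± 0.60, 0.067) were not called, and each of KO replicates 1 to 3 also ended these calls when left out (up to 0.0751, 0.0731 and 0.0601 over all other single arrays).

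None of 41 measured interferon-stimulated genes was called by limma at 24 h, although 38 had a positive difference and 12 had an unadjusted p under 0.05. The median difference was 0.83 with all arrays, 0.41 without control replicate 2, 0.10 within replicates 1 to 3 and 0.53 within replicates 4 and 5. Ifit2, which had the largest, stood at 4.70, 4.85, 4.95, 2.96 and 2.77 in KO cells, against 4.71, -1.65, 4.72, 0.65 and 1.05 in control cells (2.15 ± 1.04, adjusted p = 0.182). Controls 1 and 3 were at the KO level while controls 2, 4 and 5 were below it. With the replicate number as a block or a term for the replicate sets 2 of the 41 were higher, with Agilent's own log ratios 1, with array weights 7 were higher and 2 lower, and with slide as a fixed block 26 were lower; leaving out control replicate 1 or 3 gave 3 and 6 higher, and KO replicate 5 gave 1.

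Pattern recognition genes had 7 higher and 1 lower of 34, and 4 and 0 without control replicate 2. The lipopeptide receptor Tlr2 had 4.12, 4.27, 4.53, 3.44 and 3.40 in KO cells, against 2.66, 1.47, 2.71, 1.96 and 1.90 in control cells (1.81 ± 0.32, adjusted p = 0.000242). Tlr4 itself (1.08) was higher in both fits, as was the scavenger receptor Msr1 (1.22 ± 0.30). The TLR4 adaptor Ticam2 (0.84 ± 0.25) was called in both too, but not without any of 5 single arrays (adjusted p up to 0.0698 without control replicate 5), and turned to -0.84 with slide as a fixed block. Cd14, the LPS co-receptor (1.83 ± 0.62), the RNA sensor Tlr7 (1.31 ± 0.45) and the lectin Clec4e (2.19 ± 0.76) were called only with control replicate 2 (adjusted p = 0.183, 0.176 and 0.205 without it), and each lost the call without any of at least 5 other single arrays (up to 0.106, 0.126 and 0.0986). The signalling ligase Traf6 was lower (-0.63 ± 0.21, adjusted p = 0.141 without control replicate 2 and up to 0.114 without 1 of 4 others). Of 19 C-type lectins and Fc receptors 5 were higher and 1 lower, and 5 and 0 without control replicate 2. Clec5a rose to 3.78, 3.71, 3.54, 3.91 and 3.89 on KO arrays, against 2.20, 1.81, 2.08, 2.39 and 2.35 on control arrays (1.60 ± 0.26, adjusted p = 9.61e-05). Clec4d (1.65 ± 0.47) and the inhibitory Fc receptor Fcgr2b (1.13 ± 0.27) were higher too, and the neonatal Fc receptor Fcgrt was lower (-0.76 ± 0.26, adjusted p = 0.169 without control replicate 2 and up to 0.121 without 1 of 6 others).

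Feedback inhibitors had 5 lower and 2 higher of 32, and 4 and 2 without control replicate 2. Socs2, which dampens cytokine receptor signals, had 1.59, 1.65, 1.70, 2.39 and 2.11 on KO arrays, against 3.08, 4.18, 3.20, 3.69 and 3.37 on control arrays (-1.62 ± 0.18, adjusted p = 6.07e-07). Its relative Cish fell by 0.87 ± 0.13 (adjusted p = 3.14e-05). Sigirr, an inhibitory member of the interleukin 1 receptor family, was lower (-1.50 ± 0.32), and so was the interleukin 10 receptor Il10ra (-0.85 ± 0.24, adjusted p = 0.0531 without KO replicate 1). The kinase-dead Irak3 (1.02 ± 0.25) and the inhibitory receptor Lilrb4a (0.71 ± 0.20) were higher. NF-kB subunits and survival genes had 8 of 33 called, all lower, and 4 without control replicate 2. Pmaip1, which promotes cell death, was among those, with separate groups (-1.37 ± 0.25, adjusted p = 0.000368). Gadd45b (-1.58 ± 0.48) lost its call without KO replicate 1, 2 or 3 (adjusted p up to 0.0726), and Tnfrsf4, which encodes OX40 (-1.37 ± 0.41), without control replicate 2 (adjusted p = 0.0924) or 5 others (up to 0.0723). Of the 4 measured GIMAP GTPases, all with a negative difference, Gimap1 was called.

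The list of integrated stress response genes, which ATF4 runs when amino acids are short or proteins misfold, and oxidative stress genes had 9 of 33 members higher and 1 lower in KO cells, against 6.99% and 8.44% of all genes, and 8 and 1 without control replicate 2. The median was 0.58, and 0.45 without that array, beside -0.01 over all genes both ways. Asns, which makes asparagine, had 0.28, 0.28, 0.13, -1.46 and -1.01 on KO arrays, against -1.84, -3.67, -1.75, -3.77 and -3.59 on control arrays (2.57 ± 0.51, adjusted p = 0.000817). Chac1, which degrades glutathione, had 0.44, 0.41, 0.02, -0.81 and -0.41 in KO cells, against -1.62, -3.71, -1.61, -2.92 and -2.90 in control cells (2.49 ± 0.41, adjusted p = 0.000125). In both genes replicates 4 and 5 were lower than 1 to 3 among KO arrays and lower than 1 and 3 among control arrays, where replicate 2 was also low, and the groups were separate. The pseudokinase Trib3, which binds ATF4, rose by 1.96 ± 0.28 (adjusted p = 2.08e-05). Ddit3, which encodes CHOP (1.73), the serine synthesis enzyme Psat1 (1.26), Atf4 itself (1.04) and Cth of cysteine synthesis (0.72) were higher in both fits, and Vldlr (0.97) was not called without control replicate 2. Gclc, the enzyme that limits glutathione synthesis, was lower (-0.69 ± 0.16). Asns, Chac1 and Trib3 turned negative with slide as a fixed block (-1.16, -0.61 and -0.14).

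The promoters of these genes were read to see whether the ones that rose together share the element that ATF4 binds with C/EBP factors. The RefSeq promoters (mouse build GRCm38.p6, 250 bases before to 50 after the start) were searched on both strands for TGATGNAA, the core of that element, and 8 of the 9 higher genes had a promoter in the table. The letters were in 4 of the 8 (Asns, Chac1, Trib3 and Vldlr), in 6 of 28 measured stress genes with a promoter and in 2.78% of the 9070 tested genes with a promoter. A gene was counted once if any of its promoters matched. Counted singly, 3.97% of 32851 promoters had the letters. The 3 stretches below are those of the largest rises with a match, in lower case with the match in capitals on the strand printed. The fourth is of Slc1a2, the 1 gene with a match to the ETS-IRF composite element (GGAA and GAAA with 2 bases between them) among the 24 named by size, of which 22 had a promoter.
Asns, chr6:7693210-7693309, minus strand: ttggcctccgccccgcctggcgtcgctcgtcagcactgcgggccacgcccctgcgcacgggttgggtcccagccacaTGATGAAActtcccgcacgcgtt
Chac1, chr2:119351012-119351111, plus strand: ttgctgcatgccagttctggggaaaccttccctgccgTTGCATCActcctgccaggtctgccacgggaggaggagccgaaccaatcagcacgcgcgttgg
Trib3, chr2:152344031-152344056, minus strand: tagctcaggtTTACATCAgccgggcg
Slc1a2, chr2:102706218-102706317, plus strand: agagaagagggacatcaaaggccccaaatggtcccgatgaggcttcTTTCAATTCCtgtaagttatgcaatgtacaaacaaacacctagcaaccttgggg

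The Asns match reads along the gene's strand, and those of Chac1, Trib3 and Slc1a2 are in the reverse orientation. Over the comparison as a whole, among genes with a promoter and counted by gene, 3.99% of those higher and 2.97% of those lower in KO cells had the letters of the ATF4 element. The ETS-IRF element was in 2.55% and 3.36%, beside 2.93% of tested genes, the interferon response core (GAAA and GAAA with 2 bases between them) in 5.74% and 3.36%, beside 3.94%, and the AP-1 site TGANTCA in 8.29% and 7.24%, beside 6.93%. The 2 IRF motifs share the letters GAAA, so their matches can overlap. A match is a description of these windows and not a bound site.

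Lipid genes went different ways. Cholesterol synthesis had 7 of 23 called, all lower, with a median of -0.37, and 3 lower without control replicate 2. Pmvk, a kinase of the mevalonate pathway, had -0.93, -0.86, -0.85, 0.25 and 0.02 in KO cells, against 0.80, 0.63, 0.65, 0.81 and 0.92 in control cells (-1.24 ± 0.20, adjusted p = 0.000126). The sterol carrier Stard4 was lower by 1.55 ± 0.34 (adjusted p = 0.00198). Acat2 (-1.10 ± 0.35) and Tm7sf2 (-0.99 ± 0.30) lost their calls without control replicate 2 (adjusted p = 0.0747 and 0.105) and without single others (up to 0.113 and 0.0745). In the oxysterol and lipid efflux list 3 were higher and 1 lower of 26. Beside Ch25h these were the cholesterol exporter Abca1 (2.17 ± 0.65) and Mylip, which degrades the LDL receptor (0.92 ± 0.31). Both are known targets of the oxysterol-sensing LXR receptors, and both lost the call without single arrays (adjusted p up to 0.067 without KO replicate 2 and 0.131 without control replicate 5). The fatty acid-binding Fabp5 was lower (-1.20 ± 0.29).

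Eicosanoid genes had 4 higher and 3 lower of 22, and 2 and 3 without control replicate 2. Pla2g4a, which frees arachidonic acid, rose to 0.51, 0.51, 0.53, 0.99 and 0.80 on KO arrays, against -0.59, -2.14, -0.57, -0.58 and -0.68 on control arrays (1.58 ± 0.26, adjusted p = 0.00013). The leukotriene receptor Cysltr1 (-1.42 ± 0.25) and Alox5, the first enzyme of leukotriene synthesis (-1.25 ± 0.28), were lower. The prostaglandin synthase Ptges2 (0.65 ± 0.18) and the prostacyclin receptor Ptgir (1.19 ± 0.41) were higher, but not without control replicate 2 (adjusted p = 0.0535 and 0.0838, and for Ptgir up to 0.149 without any of 5 others), and Ptges3 (0.51 ± 0.13) in both fits. Lysosomal genes had 5 higher and 2 lower of 39, with a median of 0.44, and 4 and 2 without control replicate 2. The proton pump subunit Atp6v0d2 had 3.87, 3.86, 3.63, 3.66 and 4.07 in KO cells, against 2.74, 2.32, 2.48, 2.32 and 2.64 in control cells (1.32 ± 0.14, adjusted p = 6.07e-07). A second pump subunit, Atp6v1h, was higher (0.65 ± 0.16), and the hydrolases Sgsh (-1.29 ± 0.27) and Galc (-0.90 ± 0.15, well above background on 3 KO arrays and 5 control arrays) were lower.

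**Figure D3:**
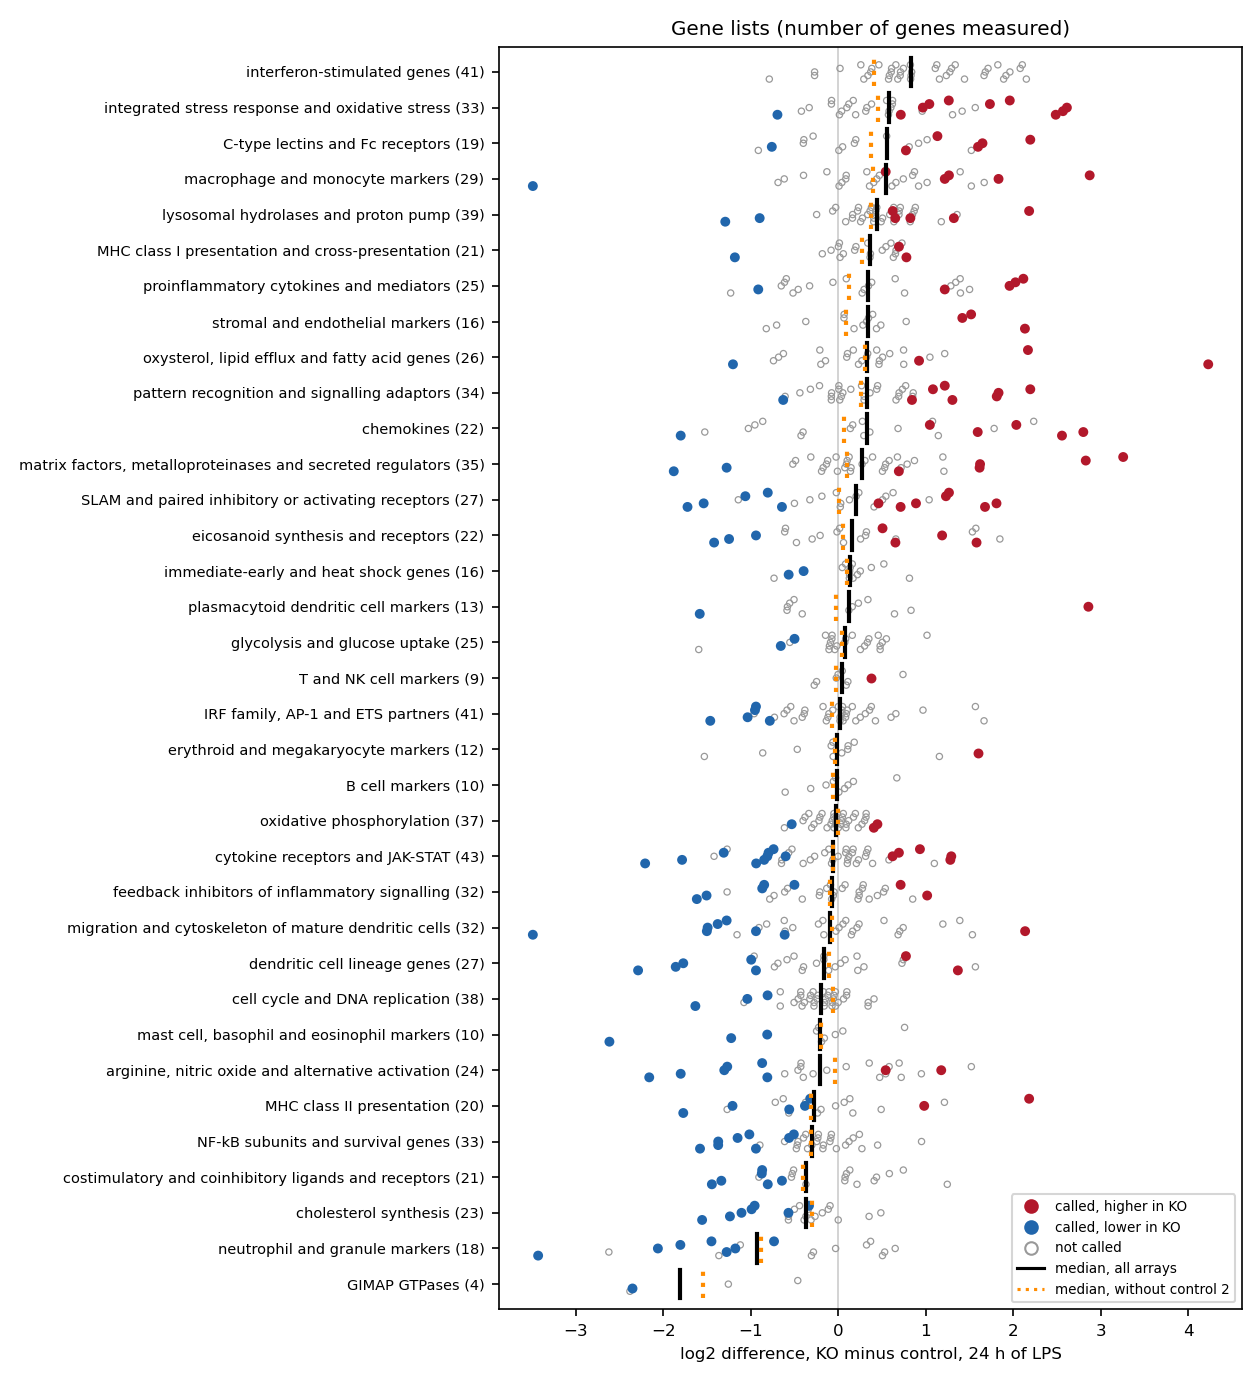
Log2 difference (KO minus control, 24 h of LPS) of each measured member of 35 gene lists, ordered by median, with called members filled and lines for the median with all arrays and without control replicate 2. Interferon-stimulated genes lie to the right with 0 called members, and the stress list has 9 called members higher and 1 lower.

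Genes of arginine metabolism and alternative activation had 6 lower and 2 higher of 24, and 6 and 1 without control replicate 2. Kynu of tryptophan breakdown had 1.76, 1.87, 1.59, 3.92 and 3.91 on KO arrays, against 4.17, 5.12, 3.62, 5.56 and 5.38 on control arrays, with overlap between KO replicates 4 and 5 and control replicate 3 (-2.16 ± 0.54, adjusted p = 0.00643). The polyamine enzyme Odc1 (-1.27 ± 0.34) was lower, and so was Retnla (-1.30 ± 0.39), which was not called without control replicate 1 or 3 or KO replicate 5 (adjusted p up to 0.0652) and turned to 0.05 with Agilent's processed ratios. Arg1 (0.09) and Nos2 (-0.43, well above background on 5 KO arrays and 3 control arrays) were not called. SLAM and paired receptors went both ways, 7 higher and 5 lower of 27, and 7 and 4 without control replicate 2. Slamf6 rose to 4.64, 4.96, 4.90, 5.33 and 4.92 in KO cells, against 3.46, 2.55, 3.18, 3.07 and 3.42 in control cells (1.81 ± 0.32, adjusted p = 0.000264). The sialic acid receptor Cd33 (1.23 ± 0.18), Cd300ld (1.68 ± 0.22) and the lipid receptor Trem2 (1.27 ± 0.24) were higher, and Treml4 (-1.54 ± 0.26) and Cd244a (-1.72 ± 0.44) lower.

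Cytokine receptors and JAK-STAT genes had 9 lower and 5 higher of 43, and 8 and 4 without control replicate 2. Stat4, which relays interleukin 12, had 1.39, 1.64, 1.52, 2.77 and 2.31 on KO arrays, against 4.60, 4.31, 4.50, 3.41 and 3.84 on control arrays (-2.21 ± 0.47, adjusted p = 0.00177). Il2ra, which encodes CD25, fell to 0.63, 0.63, 0.59, 1.81 and 1.65 in KO cells, against 2.92, 2.60, 2.64, 3.14 and 2.92 in control cells (-1.78 ± 0.26, adjusted p = 2.14e-05). Tnfrsf11a, which encodes RANK (-1.31 ± 0.32), and Il12rb2 (-0.94 ± 0.19, well above background on 1 KO array and 5 control arrays) were lower, and Tgfbr1 (1.29 ± 0.18) and Il13ra1 (1.28 ± 0.34) higher. In the list of matrix factors 5 were higher and 2 lower of 35, and 1 and 2 without control replicate 2. Beside Spp1 the collagenase Mmp13 was higher by 3.26 ± 0.90 with all arrays but was not called without control replicate 2 (2.40, adjusted p = 0.0595). The metalloproteinases Mmp25 (-1.88 ± 0.51) and Mmp9 (-1.27 ± 0.23) were lower.

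Metabolic and proliferation lists had smaller shares of calls than the 15.4% of all genes, with no glycolysis or cell cycle gene called higher. Of all genes 6.99% were higher and 8.44% lower, and the shares lower in glycolysis and cell cycle were near the latter. Glycolysis had 2 of 25 lower, Pfkp (-0.66 ± 0.15) and the glucose transporter Slc2a3 (-0.50 ± 0.14). Oxidative phosphorylation had 2 higher and 1 lower of 37, and these 3 calls ended without control replicate 2. Cell cycle genes had 3 of 38 lower, the D cyclins Ccnd2 (-1.63 ± 0.41) and Ccnd3 (-1.04 ± 0.16) and the inhibitor Cdkn2c (-0.81 ± 0.19). Without control replicate 2 glycolysis had 2 lower and cell cycle 4, beside 6.63% of all genes. Of 16 immediate-early and heat shock genes, which rise when cells are handled, 2 were lower, beside 8.44%, among them Hspa8 (-0.57 ± 0.12). The fit without control replicate 2 called 1 of the 16 lower, beside 6.63%.

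Markers of other cell types moved as well. Of 18 neutrophil and granule markers 7 were called, all lower in KO cells, 4 without control replicate 2, and the mean log2 ratio over the list was 1.52 to 2.47 on KO arrays and 2.19 to 3.23 on control arrays. S100a9 had 2.72, 1.62, 1.58, 3.97 and 5.41 on KO arrays, against 6.46, 6.63, 6.00, 6.74 and 6.62 on control arrays. The granule proteins Ltf and Ngp were well above background on 0 KO arrays and on 5 control arrays, and both were called lower (adjusted p = 0.00237 and 0.00435). Ngp was at least 2.65-fold lower in KO cells. Ltf stood at 0.03 to 0.48 on KO arrays, against 0.63 to 4.05 on control arrays. Of the granule proteases Elane was at background on every array, whereas Mpo and Ctsg were well above it on 5 KO arrays and 4 control arrays, and 5 of the 18 markers had a positive difference. Of 29 macrophage and monocyte markers 5 were higher and 1 lower, 4 and 1 without control replicate 2, with list means of 2.45 to 3.13 on KO arrays and 1.54 to 3.09 on control arrays (1.97 to 3.09 without replicate 2). Ms4a7, Trem2 and Msr1 were higher, Ccr2 lower, and Adgre1 (1.67), Mertk (0.61) and C1qa (-0.40, well above background on 4 KO arrays and 3 control arrays) were not called. Adgre1, which encodes the macrophage antigen F4/80, was called with the replicate block (adjusted p = 0.0013) and with the set term (0.000616), and turned to -3.12 with slide fixed. Cd163 and Vsig4 were at background on every array.

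The other marker lists were each detected in part. Of 10 mast cell, basophil and eosinophil markers 3 were lower, beside 8.44% of all genes, and 1, Siglecf, without control replicate 2; 5 of the 21 with a probe were well above background on all 10 arrays, and Ms4a2 was among 4 at background throughout. Stromal and endothelial markers had 3 of 16 higher, beside 6.99%, among them Lox (2.13 ± 0.39) and Col5a1 (1.42 ± 0.27), and 2 without control replicate 2. Of their 22 with a probe 13 were well above background on all 10 arrays, including the collagens Col1a1, Col1a2 and Col3a1, the proteoglycan Dcn and the smooth muscle genes Acta2 and Tagln, and 3 were at background throughout, Pdgfra among them. Plasmacytoid markers had 1 higher (Cox6a2) and 1 lower (Pacsin1, -1.58 ± 0.28) of 13, with 11 of 14 above background on all arrays. T and NK markers had 1 of 9 higher (Cd4, 0.38 ± 0.09, well above background on 5 KO arrays and 3 control arrays). Cd3e, Lck, Cd5 and Il7r were the 4 of 20 above background on all arrays, and 5 including Cd3d were at background throughout. Erythroid and megakaryocyte markers had 1 of 12 higher (Pf4), with 8 of 18 above background on all arrays, among them Hbb-bt, Epor, Car1, Car2 and Vwf, and 4 at background throughout, Alas2 among them. None of 10 B cell markers was called by limma (1 at an unadjusted p under 0.05, with 1 higher under the replicate block or without KO replicate 4, 1 each way with the set term or array weights, and 2 higher and 3 lower with slide fixed). Of 15 with a probe Cd79b, Vpreb1, Vpreb3, Mzb1 and Jchain were above background on all arrays, and Pax5 and Ebf1 on none. The part of such cells in the results above was not tested.

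Control replicate 2 decided the call of many genes, and so did other single arrays. The fit without it kept 1229 of the 1736 calls, against 1264, 1317 and 1314 without KO replicate 1, 2 or 3. Leaving out any of the other arrays at 24 h kept 1392 (control replicate 4) to 1575 (control replicate 1). Of the 1736 calls 507 were lost without control replicate 2 (239 higher and 268 lower), none of which changed sign. A further 93 genes were called only without it, 29 higher and 64 lower. The mannose receptor Mrc1 was one of these, with 4.27, 3.45, 2.89, 1.03 and 3.33 in KO cells, against 1.56, 4.16, 1.34, 0.50 and -0.20 in control cells, of which 3 were well above background. Replicate 2 was the highest control, and the difference was 1.52 ± 0.71 with it (adjusted p = 0.165) and 2.19 ± 0.66 without it (adjusted p = 0.03). The amino acid transporter Slc1a5 (0.96 ± 0.28), the nucleolar protein Nop58 (1.02 ± 0.32), the zinc transporter Slc39a6 (0.97 ± 0.30) and Wwc2 (1.04 ± 0.28) were also higher without it. Lower without it were the alarmin Il33 (-1.92 ± 0.60), the interleukin 12 receptor Il12rb1 (-1.75 ± 0.53), the retinoic acid hydroxylase Cyp26b1 (-1.72 ± 0.32), Setd4 (-1.48 ± 0.48) and the lysosomal protease Lgmn (-1.43 ± 0.47).

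**Figure D4:**
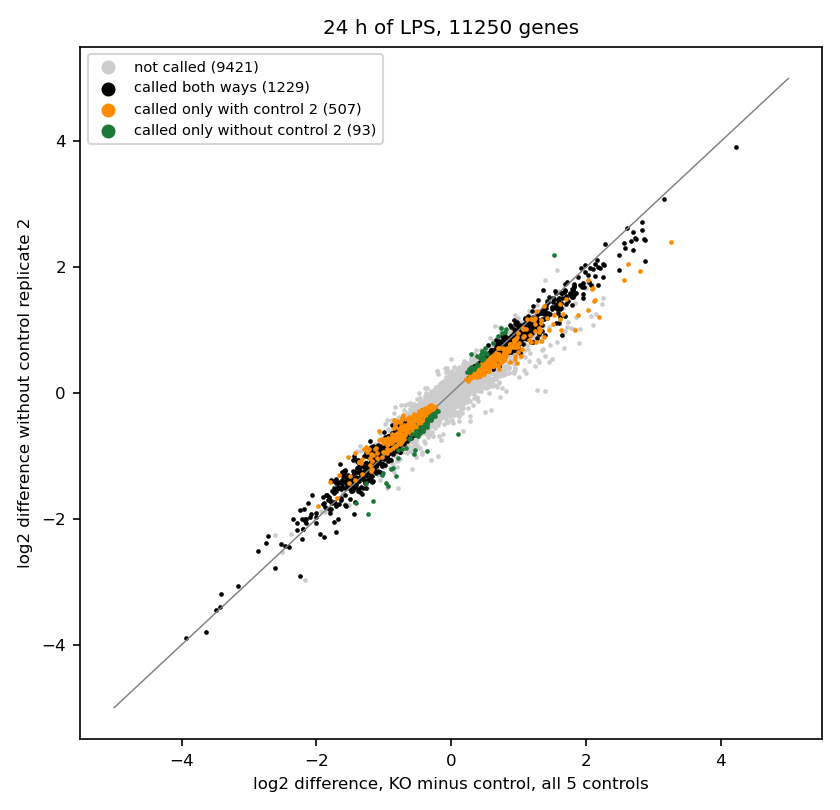
Log2 difference (KO minus control, 24 h of LPS) of 11250 genes with all 5 controls on the horizontal and without control replicate 2 on the vertical axis, coloured by the fit that called the gene. Both fits called 1229 genes, 507 were called only with replicate 2 and 93 only without it, and the line marks equal values.

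The KO difference at 24 h was set beside those of unstimulated cells and of cells with 6 h of LPS, which come from other arrays. There 1585 (14.1%) and 1361 (12.1%) genes were called. Of the 1736 calls at 24 h, 713 (41.1%, or 45% of the unstimulated calls) were shared with unstimulated cells in the same direction and 9 were opposite, and 780 (44.9%, or 57.3% of the 6 h calls) were shared with 6 h and 2 opposite. All 3 times shared 483 genes. Upb1 differed by -4.82, -3.53 and -3.94 at 0, 6 and 24 h, Ch25h by 4.27, 3.26 and 4.23, and Lmo1 by -2.50, -2.20 and -2.46. A further 716 genes were called at 24 h alone, which does not show that their difference changed with time.

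The test of that change, the KO difference at 24 h minus that in unstimulated cells, called 99 genes (0.88%), 48 higher (0.427%) and 51 lower (0.453%), 96 without control replicate 2 and 54 without KO replicate 3. Slc1a2 led it. It differed by -0.22 in unstimulated cells, 2.76 at 6 h and 2.83 at 24 h, a change of 3.05 ± 0.44 (adjusted p = 0.000676). The deacetylase Hdac9, well above background on 3 control arrays at 24 h, moved in the same way (0.00, 1.95 and 2.14, change 2.14, adjusted p = 0.0268). The interferon-induced Zbp1, a sensor of Z-form nucleic acid, and the GTPase Gbp2 were lower in unstimulated KO cells (-1.91 and -1.81) and near control at 24 h (0.46 and 0.37), changes of 2.37 (adjusted p = 0.015) and 2.18 (adjusted p = 0.0197). They were the 2 called among 41 interferon-stimulated genes, all 41 of which had a more positive difference at 24 h than in unstimulated cells. The count of 41 includes control replicate 2, whose mean over the list was 0.30, against 2.13 to 3.70 on the other 24 h controls. Set against 6 h, 15 of the 41 had a more positive difference at 24 h. Mgarp changed by 2.45 (adjusted p = 0.0365, and 0.0697 without control replicate 2).

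In the other direction the transporter Flvcr2 was higher in unstimulated KO cells (2.58) and near control at 24 h (0.34, 3 control arrays well above background), a change of -2.24 (adjusted p = 0.0049). Tcf7l2, a factor of WNT signalling, moved likewise (2.30 and 0.38, adjusted p = 0.0396, and 0.0757 without control replicate 2). Serinc5 differed by 0.87 in unstimulated cells and -1.08 at 24 h (adjusted p = 0.0262), Elmo1, which promotes engulfment, by 0.51 and -1.21 (adjusted p = 0.0102), and Glcci1 by 0.23 and -1.39 (adjusted p = 0.0176). Of the 23 cholesterol synthesis genes 16 were called lower in unstimulated cells (7.13% of all genes), 17 at 6 h (5.88%) and 7 at 24 h, and 18 and 20 of the 23 were less negative at 24 h. The change of each member missed the threshold of limma's test.

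Between 6 and 24 h the KO difference changed for 12 genes (0.107%), 3 upward (0.0267%) and 9 downward (0.08%), and for 11, all downward, without control replicate 2. Leaving out KO replicate 1 or 2 or control replicate 5 gave 2 calls, and leaving out KO replicate 3 gave 4. Csf2, which encodes GM-CSF, was 2.66 log2 units higher in KO cells at 6 h, but at 24 h it was well above background on 3 KO arrays and 0 control arrays. The change between these times was called (adjusted p = 0.0293), but the 24 h difference, which was not called, rests on background signal. The size of the change therefore rests on background signal too. Ttc39c (0.64 and -1.25, adjusted p = 0.0187), Glcci1 (0.42 and -1.39, adjusted p = 0.0326), the kinase Stk38l (2.07 and 0.46, adjusted p = 0.0293) and the ubiquitin ligase Smurf2 (0.63 and -0.25, adjusted p = 0.0187) also changed downward from 6 h to 24 h. The 3 upward were Dynll1 (1.17), the complex I subunit Ndufa5 (0.88) and Olfr615 (0.63), each with an adjusted p of 0.0375 that was 0.0629 without control replicate 2.

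**Figure D5:**
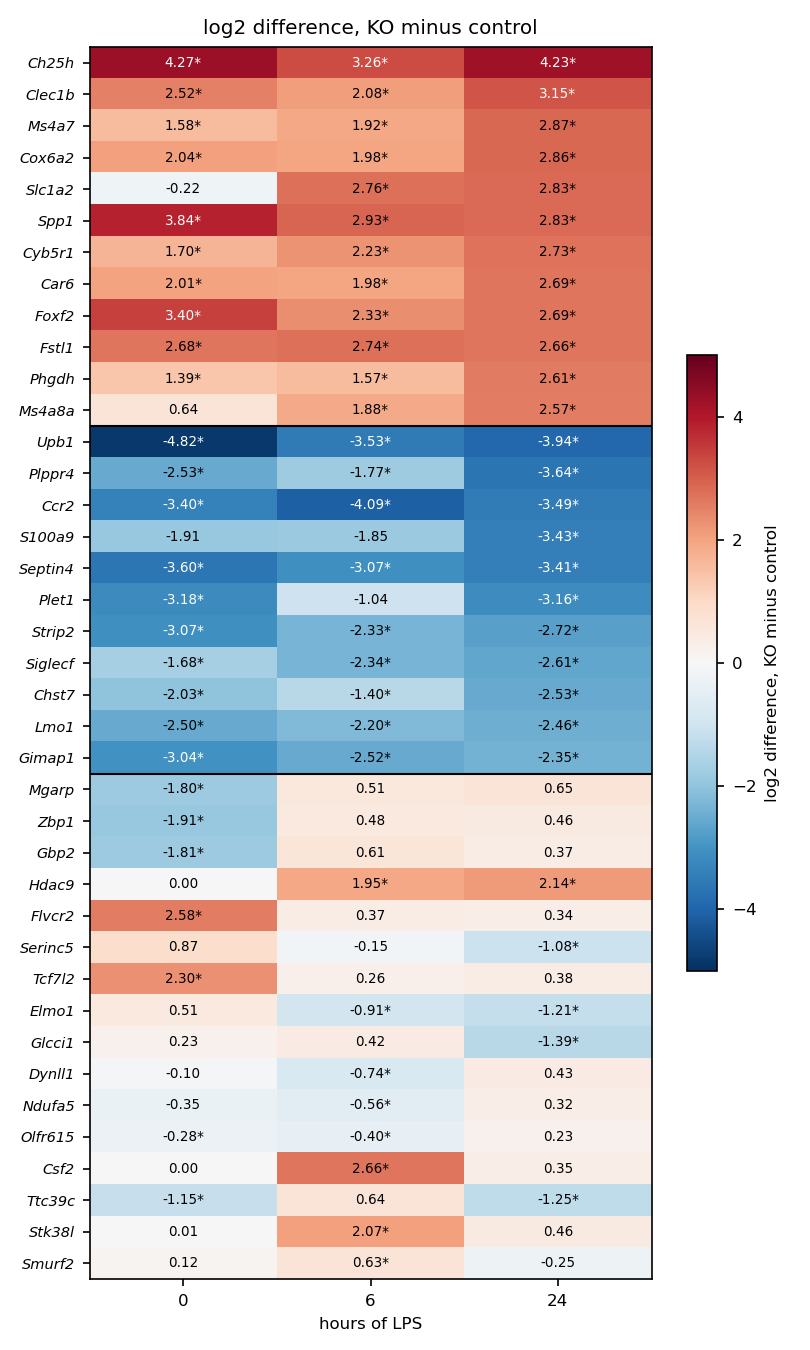
Log2 difference, KO minus control, at 0, 6 and 24 h of LPS for the largest rises and falls at 24 h and the genes named for a change between times, with an asterisk at an adjusted p under 0.05. Upb1, Ch25h and Lmo1 are called at all 3 times, and Slc1a2 is at -0.22 at 0 h, 2.76 at 6 h and 2.83 at 24 h.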

How the data were processed

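Per the file headers, each of the 30 deposited two-colour Agilent files (9 slides, no dye swap) came from Feature Extraction 10.7.3.1 and holds median spot and background intensity in both channels and a log10 ratio of Cy5 over Cy3. The authors also deposited a table of log2 ratios, which correlated with these arrays at 0.999885 to 0.999998. The submitters' processing notes name limma.

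Median intensities were background-corrected (normexp, offset 50) and loess-normalised within arrays without the 1639 control spots of 45018 (limma 3.58.1, R 4.3.3). Of 41174 probes 22951 were named through a RefSeq table, giving 16358 genes. The 11250 genes whose Cy5 signal was marked well above background throughout 1 or more groups of 5 arrays were tested, each by its brightest probe (7899 have 1 probe). One mean per group was fitted to 30 arrays (24 residual degrees of freedom) with Benjamini-Hochberg adjustment over 11250 genes. The number of arrays limits the precision. Bounds ("at least N-fold") set a group's mean against the dimmest signal well above background. No replicate pair was close enough to be a repeat deposit of 1 sample (at least 1.78 times the spread of repeated spots).

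On simulated data for the 24 h comparison (11250 genes), 78 of 100 genes changed by 1 log2 unit and 95 of 100 changed by 2 were recovered, with 9 false calls. The simulated noise was independent between arrays, with no shift by replicate set or slide. These counts therefore check the fit and do not give the error rate of the real comparison.

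Named genes were Irf4, the 12 largest rises and falls called with and without control replicate 2 with separate groups (unannotated names passed over), up to 4 called members per list in the main direction and 2 in the other, and 5 each way called only without control replicate 2 or between times. Other list members are given as values, and a few genes that the rule names are not reported here. The samples compared, the 35 lists and the rule were chosen with earlier results of these data known. Alternatives covered background, normalisation, filters, probes, slide, replicate terms, weights and arrays left out.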

Additional observations from a re-analysis of the deposited data

Results flagged for a closer look

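Dixon's test on the 5 arrays of each group set single arrays apart for genes named above, which chance does for about 1 group in 20. Nearly all of these were control replicate 2. It was the lowest control, by log2 ratio, for the inflammatory genes Il6 (2.45), Il1a (1.42), Il1b (2.10), Tnf (0.05), Il12a (-0.30), Mmp13 (-1.07), Ccrl2 (1.31) and Pla2g4a (-2.14). It was also the lowest for the receptors Clec4d (-0.10), Clec4e (-1.40), Msr1 (1.05), Lilrb4a (1.90), Pdcd1lg2 (4.42) and Cd4 (0.49), for Marchf1 (2.94) and Atp6v1h (0.02), for Psat1 (-2.76) and Vldlr (-4.69) of the stress list, and for Car6 (-2.74), Foxf2 (-3.79), Col5a1 (-4.79), Cyp26b1 (-0.06) and Setd4 (-0.46).

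The same array was the highest control for Strip2 (6.02), Pacsin1 (3.85), Elmo1 (3.12), Il12rb2 (2.22), Traf6 (1.62), Tgfbr1 (1.27), Slc2a3 (0.11) and Wwc2 (-2.14). Among KO arrays replicate 4 was low for Cd300ld (0.98), replicate 5 was low for Etv3 (0.90) and high for Cish (4.30), and replicate 1 was high for Glcci1 (-1.81).

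The KO difference at 24 h differed from that in unstimulated cells, by limma's test of the change, for Slc1a2 (3.05), Mgarp (2.45), Zbp1 (2.37), Gbp2 (2.18), Hdac9 (2.14), Col5a1 (1.61), Ptges2 (1.19) and Olfr615 (0.51) in the positive direction. It did so for Flvcr2 (-2.24), Serinc5 (-1.94), Tcf7l2 (-1.92), Elmo1 (-1.71), Glcci1 (-1.62) and Galc (-1.01) in the negative direction. From 6 to 24 h the change was positive for Dynll1 (1.17), Ndufa5 (0.88) and Olfr615 (0.63), and negative for Csf2 (-2.32, against background signal on all 24 h control arrays), Ttc39c (-1.89), Glcci1 (-1.81), Stk38l (-1.61) and Smurf2 (-0.88).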

How the results depend on the processing

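The 1736 calls at 24 h numbered 1381 to 1802 with Agilent's log ratios, backgrounds as scanned, Cy5 alone, the authors' deposited table, other filters, probe means, a variance trend or slide as a random block. They numbered 997 with median centring (403 higher and 594 lower), 1135 with the 10 arrays alone, 3044 with the replicate number as a block, 3119 with a term for the replicate sets (3335 also without the 2 arrays of the later slide), 4946 with array weights and 5069 with slide as a fixed block. With only replicates 1 to 3 of the 24 h arrays (control replicate 2 left out) there were 818. With only replicates 4 and 5 of the 24 h arrays there were 305, and Irf4 was at -1.53 (adjusted p = 0.0542, limma). Both of these fits kept all unstimulated and 6 h arrays, so their spread comes from replicates 1 to 5. These 2 settings and the combined term were chosen after seeing the data. The later slide held control replicate 2 of 24 h and control replicate 3 of 6 h. Leaving out 1 array gave 1269 to 1836 calls and -2.33 to -2.04 for Irf4.

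The 1322 calls without control replicate 2 numbered 701 with median centring, 2601 with the replicate block over 30 arrays, 2881 over 10, 2628 with the set term, 5115 with weights and 5880 with the slide block, and 871 to 1474 with 1 more array left out. The 99 changes from unstimulated cells numbered 20 with median centring, 213 with Cy5 alone, 510 with the replicate block, 6028 with slide fixed, 35 with slide random, 619 with the set term (1127 without the later slide), 2622 with weights, 200 without the later slide and 38 with replicates 4 and 5, and 54 to 108 with 1 array left out. The 12 changes from 6 h numbered 4 with Agilent's ratios, 7 with backgrounds as scanned, 1 with median centring, 31 with Cy5, 58 with the block, 5670 with slide fixed, 1 with slide random, 73 with the set term (171 without the later slide), 1136 with weights, 23 without the later slide and 26 with replicates 1 to 3, and 2 to 18 with 1 array left out. The 38 and the 26 set those replicates at 24 h against all 5 replicates of each group at the other time. The cause of the shifts in these counts was not tested.

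Same-numbered arrays correlated at 0.462, 0.059, 0.649, 0.724 and 0.695 in their deviations from the group means. Replicate 2, whose control array is the one unlike the other controls, missed the 0.1 asked of every pair, so the number was not taken as a pairing. The main fit without that array was left unpaired too, although no other pair missed the 0.1. The other 4 pairs deviated together, 3 of 5 KO arrays and 1 of 5 control arrays correlated best with their own number, and the shift between replicates 1 to 3 and 4 and 5 had the same sign in both genotypes for 79.2% of genes (control replicate 2 left out), as a hint from the data. The block called 13 further named genes. Differences turned to 0.09 for Pdcd1lg2 and 0.05 for Retnla with Agilent's ratios, and to -0.17 for Cxcl1 and 0 for H2-DMa within replicates 4 and 5. With slide fixed, which rests on KO replicate 5, 60 named genes had the other sign, 45 of them called in one of the fits or both. Of the other 15, called in neither, Mrc1 (-2.92), Wwc2 (-0.91), Slc1a5 (-0.35) and Cyp26b1 (1.43) had been called without control replicate 2. Among the 45, to negative values turned Mertk (-4.02), Ifit2 (-2.95), Ms4a8a (-2.79), Abca1 (-2.77), Ctsl (-2.74), Cox6a2 (-2.71), Tcf7l2 (-2.35), Tlr7 (-2.10), Csf1 (-1.49), Mylip (-1.43), Psmb10 (-1.39), Ptgir (-1.20), Ccrl2 (-1.17), Erap1 (-1.17), Asns (-1.16), Cd14 (-1.11), Ticam2 (-0.84), Fstl1 (-0.76), Chac1 (-0.61), Car6 (-0.53), Irak3 (-0.53), Ptx3 (-0.46), Vldlr (-0.42), Trib3 (-0.14) and Hdac9 (-0.02). To positive values turned Setd4 (2.42), Acat2 (1.72), Kynu (1.61), Stard4 (1.05), Siglecf (0.94), Odc1 (0.87), Tm7sf2 (0.86), Fabp5 (0.77), Plet1 (0.72), Ltf (0.62), Alox5 (0.55), Tnfrsf4 (0.54), Cd244a (0.51), Ccl24 (0.50), Pdcd1lg2 (0.45), Mmp9 (0.31), Slc2a3 (0.31), Cysltr1 (0.28), Tnfsf4 (0.08) and Gclc (0.03).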
